A study of Mus musculus with 4 samples.

Results

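Mecom and 8 further regulators of blood stem cells (Prdm16, Meis1, Hlf, Erg, Runx1t1, Gata2, Tal1 and Lmo2) were examined for H3K9me3, the trimethylated form of histone H3 lysine 9 that is typical of silent chromatin. These 9 genes are 9 of the 20558 protein-coding genes on the autosomes, and of 21774 in all. They were taken by name, and Mecom was chosen by its long island cover in the knockout library alone. Its island values are therefore given as a description. For each gene, every deposited island with at least 1 bp in the gene or within 100 kb of either end was taken, using RefSeq gene positions on mm10 (GRCm38.p6).

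The cells were mouse CD8+ T cells of the C57BL/6 strain, wild type (WT) or lacking the H3K9 methyltransferase gene Suv39h1 (KO), and the series title calls the controls littermates. Both genotypes were cultured for 3 days with IL-2 and with anti-CD3 and anti-CD28 antibodies, and H3K9me3 was mapped by chromatin immunoprecipitation and sequencing (ChIP-seq) in 1 library each. The input library of each genotype was not analysed here. The sources used here give neither the age of the mice, the number of animals behind a library nor how the deletion was made. There were no replicates, so the values describe these 2 libraries and no difference between genotypes was tested.

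The KO list was the longer of the 2, with 25424 islands and 10020253 reads against 12371 islands and 5547695 reads in WT. Its islands covered 249 Mb against 136 Mb in WT. A higher number or cover of KO islands at a locus stands beside that difference throughout, and its part in the results was not tested. Density is given as reads per kb of island, which is not scaled to library depth and is compared only within a list. Its median was 40.4 in WT and 40.1 in KO, and its 1st percentile, near the lowest density called, was 34.3 and 34.1. A locus without an island had no stretch past the authors' threshold, which does not show that the mark was absent. A bulk library also cannot tell the mark on a part of the cells from a weaker mark on all of them.

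Blood stem cells are kept by a network of transcription factors, most of which are switched off as cells enter the lymphoid lineages. MECOM and PRDM16 are related zinc finger proteins that maintain stem cells, MEIS1 is a homeobox partner of HOX proteins, and HLF is a bZIP factor that marks stem cells. ERG is an ETS factor, while GATA2, TAL1 and LMO2 act together in shared DNA-bound complexes. RUNX1T1, also called ETO, is a corepressor known from its fusion to RUNX1 in leukaemia, and several of the others are likewise known as leukaemia genes. H3K9me3 is laid down by several enzymes, of which SUV39H1 is one.

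Mecom was the member with most cover in KO. The gene spans 558 kb of chromosome 3 on the minus strand (chr3:29951296-30509759). In KO, 16 islands lay in the gene and covered 159 kb, or 28.4% of it, while no WT island touched it. Among the 559 autosomal genes that were 0.5 to 2 times as long, 15.6% had an island in KO alone. Since Mecom was chosen for this pattern, that share is printed for scale only.

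The KO cover of Mecom was made of many separate islands of ordinary density. The 16 islands held 6297 reads and were 2.50 to 21 kb long, with a median of 8.25 kb. They were separated by 15 gaps of 2 to 51 kb, with a median of 20.5 kb. Their density ranged from 34.6 to 55.2 reads per kb with a median of 40.5, and 10 of the 16 lay above the median of the KO list. The densest, chr3:30346501-30349000, was also the shortest, with 138 reads in 2.50 kb, or 55.2 reads per kb (95% Poisson interval 46.4 to 65.2, counting error only). The longest, chr3:30260501-30281500, was the least dense, with 726 reads and 34.6 reads per kb (32.1 to 37.2), close to the lowest densities in the list. Long cover over Mecom was thus not the same as dense cover.

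The start sites of Mecom lay outside the islands of both libraries, as most gene starts did. Of the 300-base start windows of autosomal protein-coding genes, 3.24% lay in a WT island and 3.55% in a KO island. RefSeq places an outer start at the end of the gene and an inner start 497 kb further along. As background, Mecom is transcribed from an outer start into the long MDS1-EVI1 form, which carries a PR domain, and from inner starts into the shorter EVI1 form. The KO islands stopped 90.8 kb short of the outer start, and the nearest WT island, chr3:30529001-30543000, lay 19.2 kb upstream of it with 544 reads, or 38.9 per kb. The window of 300 bases around the inner start had a KO island 24.7 kb away and the nearest WT island 187 kb away. The windows of both starts are shown because Mecom was the member with most KO cover. They run from 250 bases before to 50 after each start (RefSeq, GRCm38.p6, minus strand, 5′ to 3′). Every CG is in capitals, the dinucleotide that is dense in the CpG islands of many gene starts.
Mecom outer start, chr3:30509710-30510009: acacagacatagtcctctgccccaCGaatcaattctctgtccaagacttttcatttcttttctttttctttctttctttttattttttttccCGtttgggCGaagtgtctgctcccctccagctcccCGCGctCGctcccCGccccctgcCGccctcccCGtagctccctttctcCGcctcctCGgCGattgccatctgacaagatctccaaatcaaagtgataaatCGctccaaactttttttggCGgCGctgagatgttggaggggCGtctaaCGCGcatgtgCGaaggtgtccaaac
Mecom inner start, chr3:30013155-30013454: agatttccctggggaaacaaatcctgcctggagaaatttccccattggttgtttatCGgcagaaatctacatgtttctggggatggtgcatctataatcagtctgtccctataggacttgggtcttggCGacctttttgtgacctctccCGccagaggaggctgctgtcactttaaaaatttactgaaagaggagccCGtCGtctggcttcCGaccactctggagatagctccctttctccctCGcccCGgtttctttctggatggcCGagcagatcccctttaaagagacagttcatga
The outer window holds 19 CG and the inner window 9, against a median of 14 over the 20085 windows of autosomal protein-coding genes.

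Cover was uneven along Mecom in KO. In 5 equal parts of the gene from the outer start, KO islands covered 16.6%, 26.9%, 43.7%, 26.6% and 28.4%, and WT islands covered 0% of each. The middle part was the fullest, with 48.8 kb. Split at the inner start, the 497 kb between the starts held 14 KO islands over 135.5 kb (27.3%), and the 61.9 kb after the inner start held 2 over 23.2 kb (37.5%). The last of these, chr3:29948501-29968000, ran past the gene's lower-coordinate end. Both parts of the gene were thus covered in KO, the shorter part by the larger share.

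**Figure D1:**
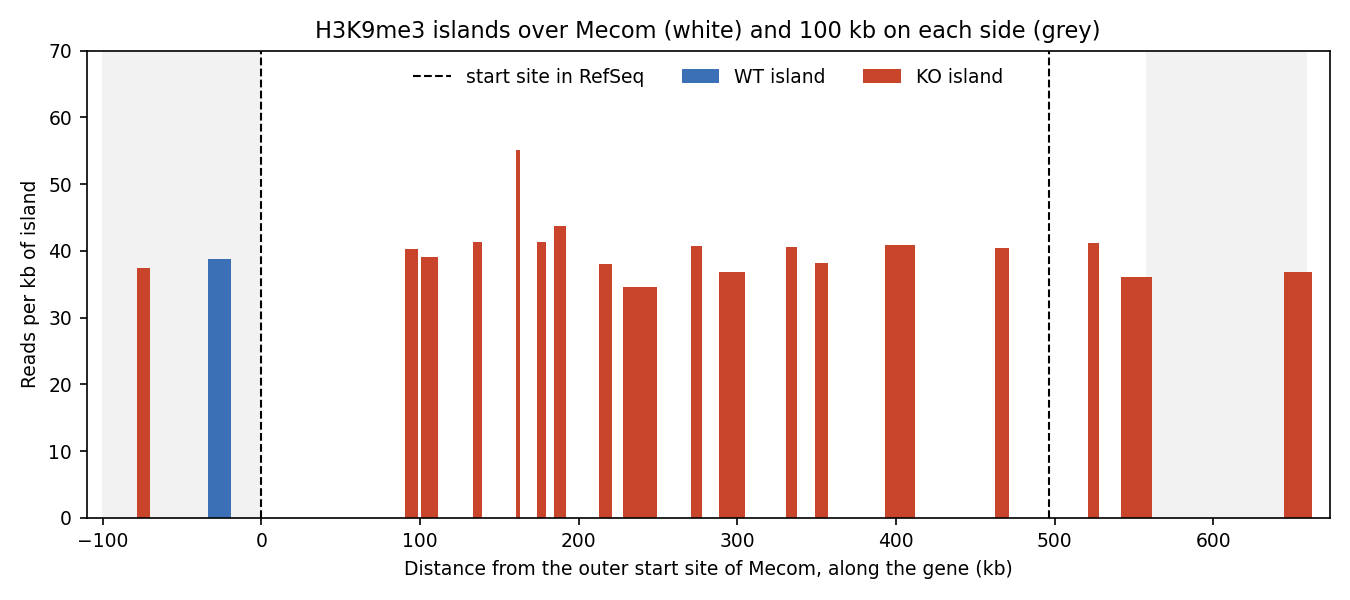
Islands over Mecom and 100 kb on each side. Bars span each island's extent along the x axis (kb from the outer start site) and reach its reads per kb on the y axis, with WT in blue and KO in red, and dashed lines mark the start sites. The 16 KO islands in the gene lie between 34.6 and 55.2 reads per kb, none reaches either start, and the WT island stands 19.2 kb upstream.

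Outside the gene, the 100 kb on each side held 2 further KO islands. The downstream one, chr3:29847501-29865000, lay 86.3 kb from the gene with 36.8 reads per kb. The upstream one, chr3:30580001-30588000, lay 70.2 kb from it with 37.5 reads per kb. With both flanks included, KO islands covered 183 kb (24.2%) and the WT island 14 kb (1.85%). No island within this stretch was overlapped by the other genotype. For the 16 KO islands in the gene this follows from the choice of Mecom for cover in KO alone. Over the whole lists, 48% of WT and 24.9% of KO islands were overlapped, printed for scale only. The WT island lay 37 kb from the nearest KO island, which was the upstream one.

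KO cover was also present beyond Mecom on both sides, though sparse in the nearer upstream part. In the 500 kb downstream, which hold part of Egfem1, KO islands covered 12.4% and WT islands 9.10%. In the 500 kb from there to 1 Mb the values were 19.9% and 10.1%. In the first 500 kb upstream, which hold Actrt3, Mynn, Phc3 and other genes, KO islands covered 3.70% and WT islands 5.20%. From there to 1 Mb upstream the values were 14.9% and 14.2%, with 1 bin of 100 kb at 38.5% in KO. The value inside Mecom (28.4% in KO, 0% in WT) was above the KO cover and below the WT cover of each of these 4 stretches, though not above every single bin.

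Genes of like length are set beside Mecom for scale only, since Mecom was chosen for its long cover in KO alone. Of the 559 genes in its length class, 187 had no WT island in the gene, and 87 of these had a KO island. Over all 187 genes the median KO cover was 0% and the upper quartile 5.38%, and 4 of the 187, Mecom included, were at 28.4% or above. With WT-marked genes counted too, 75 of the 559 reached that share. By distance in KO-covered share, the 3 nearest genes without a WT island were Skint5 (15 islands, 29.4%), Csmd2 (17 islands, 31.3%) and the calsyntenin gene Clstn2 (14 islands, 24.3%), compared over these 2 libraries only.

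**Figure D2:**
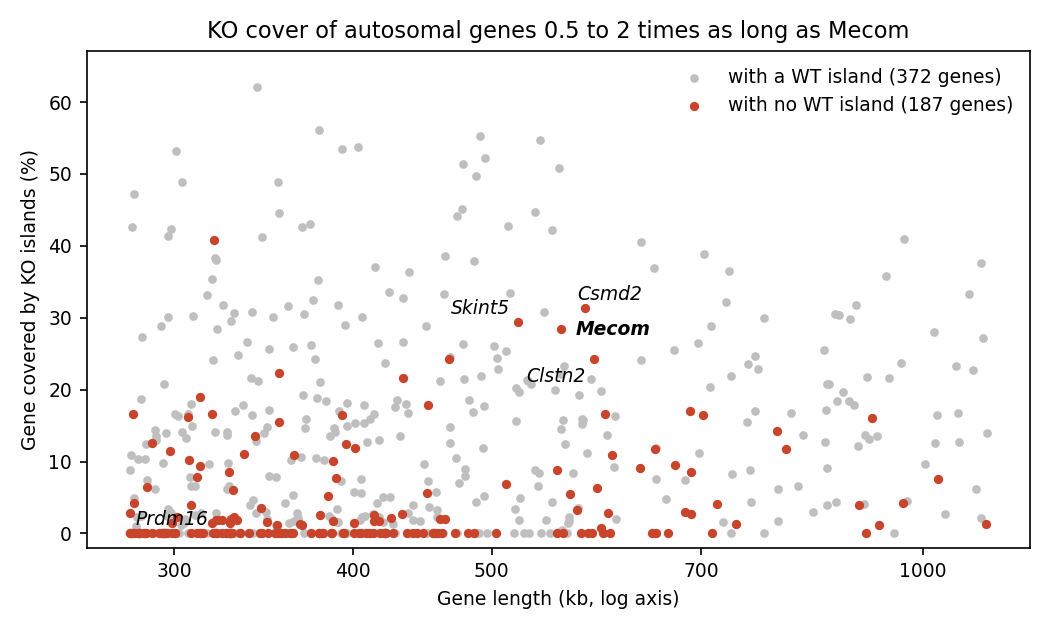
KO cover against length for the 559 autosomal genes 0.5 to 2 times as long as Mecom. Each point is a gene, with its length on a log axis (kb) and the share of the gene in KO islands (%) on the y axis, in red where no WT island lay in the gene. Mecom stands at 28.4% beside Skint5, Csmd2 and Clstn2, and Prdm16 lies at 0%.

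Prdm16, the closest relative of Mecom in the list, was free of islands. The gene spans 321 kb (chr4:154316122-154637360, minus strand). A single WT island, chr4:154716001-154725500, lay 78.6 kb upstream with 337 reads, or 35.5 per kb, with only 3.60% of WT islands less dense. The nearest KO island was 429 kb from the gene. Mecom and Prdm16, both long genes, were therefore unlike in these lists, but Mecom was chosen for its KO cover. The value of Prdm16 was ordinary for its length. Among the 187 genes without a WT island in the length class of Mecom, which include Prdm16, the median KO cover was 0%.

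Runx1t1 was the other member covered in KO alone. The gene spans 152 kb (chr4:13742628-13895056), and 2 KO islands covered 16.6 kb (10.9%) of it. Of the genes 0.5 to 2 times as long as Runx1t1, 10.2% had an island in KO alone. One island, chr4:13773001-13781500, lay wholly inside the gene with 317 reads, or 37.3 per kb. Another, chr4:13887001-13899000, ran across the gene's higher-coordinate end with 444 reads, or 37 per kb. The other 5 KO islands lay in the flanks, 15.9 to 85.1 kb from the gene.

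All 7 KO islands at Runx1t1 were weak for their list. Their density was 34.7 to 38.3 reads per kb with a median of 37, and each was below the median of the KO list. Together they covered 74 kb, or 21% of the gene with its flanks, which holds no other protein-coding gene. The nearest WT island lay just outside, 119 kb from the gene, with 36.8 reads per kb. From the gene out to 1 Mb on either side, KO cover was likewise above WT cover: over the first 500 kb it was 13.9% against 6.30% on the lower-coordinate side and 19.7% against 7.30% on the other. Runx1t1 thus lay in a wider gene-poor stretch with more KO cover than WT cover, though not in every bin of 100 kb. The whole KO list likewise covered more than the WT list, 249 against 136 Mb.

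Meis1 went the other way, with WT islands at both ends of the gene and no KO island in it. The gene spans 139 kb (chr11:18880428-19019651, minus strand). One WT island, chr11:19016501-19026500, covered the start with 375 reads, or 37.5 per kb (95% Poisson interval 33.8 to 41.5). It was of low density for its list, with 16.2% of WT islands less dense, and 3.15 kb of its 10 kb lay in the gene. Another, chr11:18879501-18887000, covered the far end with 299 reads, or 39.9 per kb (35.5 to 44.7). A further WT island lay 26.9 kb downstream (chr11:18844501-18853500, 40.7 reads per kb). Over all autosomal genes, 5.98% had an island in the gene in WT alone and 5.86% in KO alone. Of those 20558 genes 16580 are under 60 kb, so these shares are not matched to the length of Meis1.

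KO islands near Meis1 stood further out and did not overlap the WT islands. One lay 81.4 kb downstream (chr11:18791501-18799000) with 43.5 reads per kb and the other 50.3 kb upstream (chr11:19070001-19079500) with 38.5. They were 45.5 and 43.5 kb from the nearest WT island. In the gene with its flanks WT islands covered 26.5 kb (7.81%) and KO islands 17 kb (5.01%). Beyond, on the downstream side, KO cover over the first 500 kb was 17.8% against 4.59% in WT. On the upstream side it was 7% against 7.07%, and from there to 1 Mb 0% against 2.20%. KO cover was thus the higher on the downstream side of Meis1 and not on the upstream side.

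Of the member starts in RefSeq's start windows, the Meis1 start alone lay under an island. RefSeq start windows of 300 bases matched 7 of the 9 members, with 12 windows in all, and 1 of these 12 lay in a WT island and 0 in a KO island. Over the 20085 windows of autosomal protein-coding genes, 3.24% lay in a WT island and 3.55% in a KO island. The Meis1 window is shown because it lay in a WT island (RefSeq, GRCm38.p6, minus strand, 5′ to 3′), with every CG in capitals.
Meis1 start, chr11:19018920-19019219: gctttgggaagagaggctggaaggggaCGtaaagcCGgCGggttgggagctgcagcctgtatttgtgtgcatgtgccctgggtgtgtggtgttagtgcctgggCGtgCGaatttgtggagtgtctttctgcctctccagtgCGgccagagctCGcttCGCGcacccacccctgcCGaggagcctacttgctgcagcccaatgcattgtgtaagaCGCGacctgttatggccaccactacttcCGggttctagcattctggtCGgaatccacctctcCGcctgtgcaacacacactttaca
It holds 15 CG and 58.3% G and C, where the windows in WT islands had a median of 2 CG and 41% and those in KO islands 1 CG and 37.7%. Of the 9660 windows with at least as many CG as Meis1, 92 (0.952%) lay in a WT island and 33 (0.342%) in a KO island. CG reads the same on both strands, and 95.6% of all windows hold at least 1. The non-coding gene Gm16141 lies under the same WT island.

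**Figure D3:**
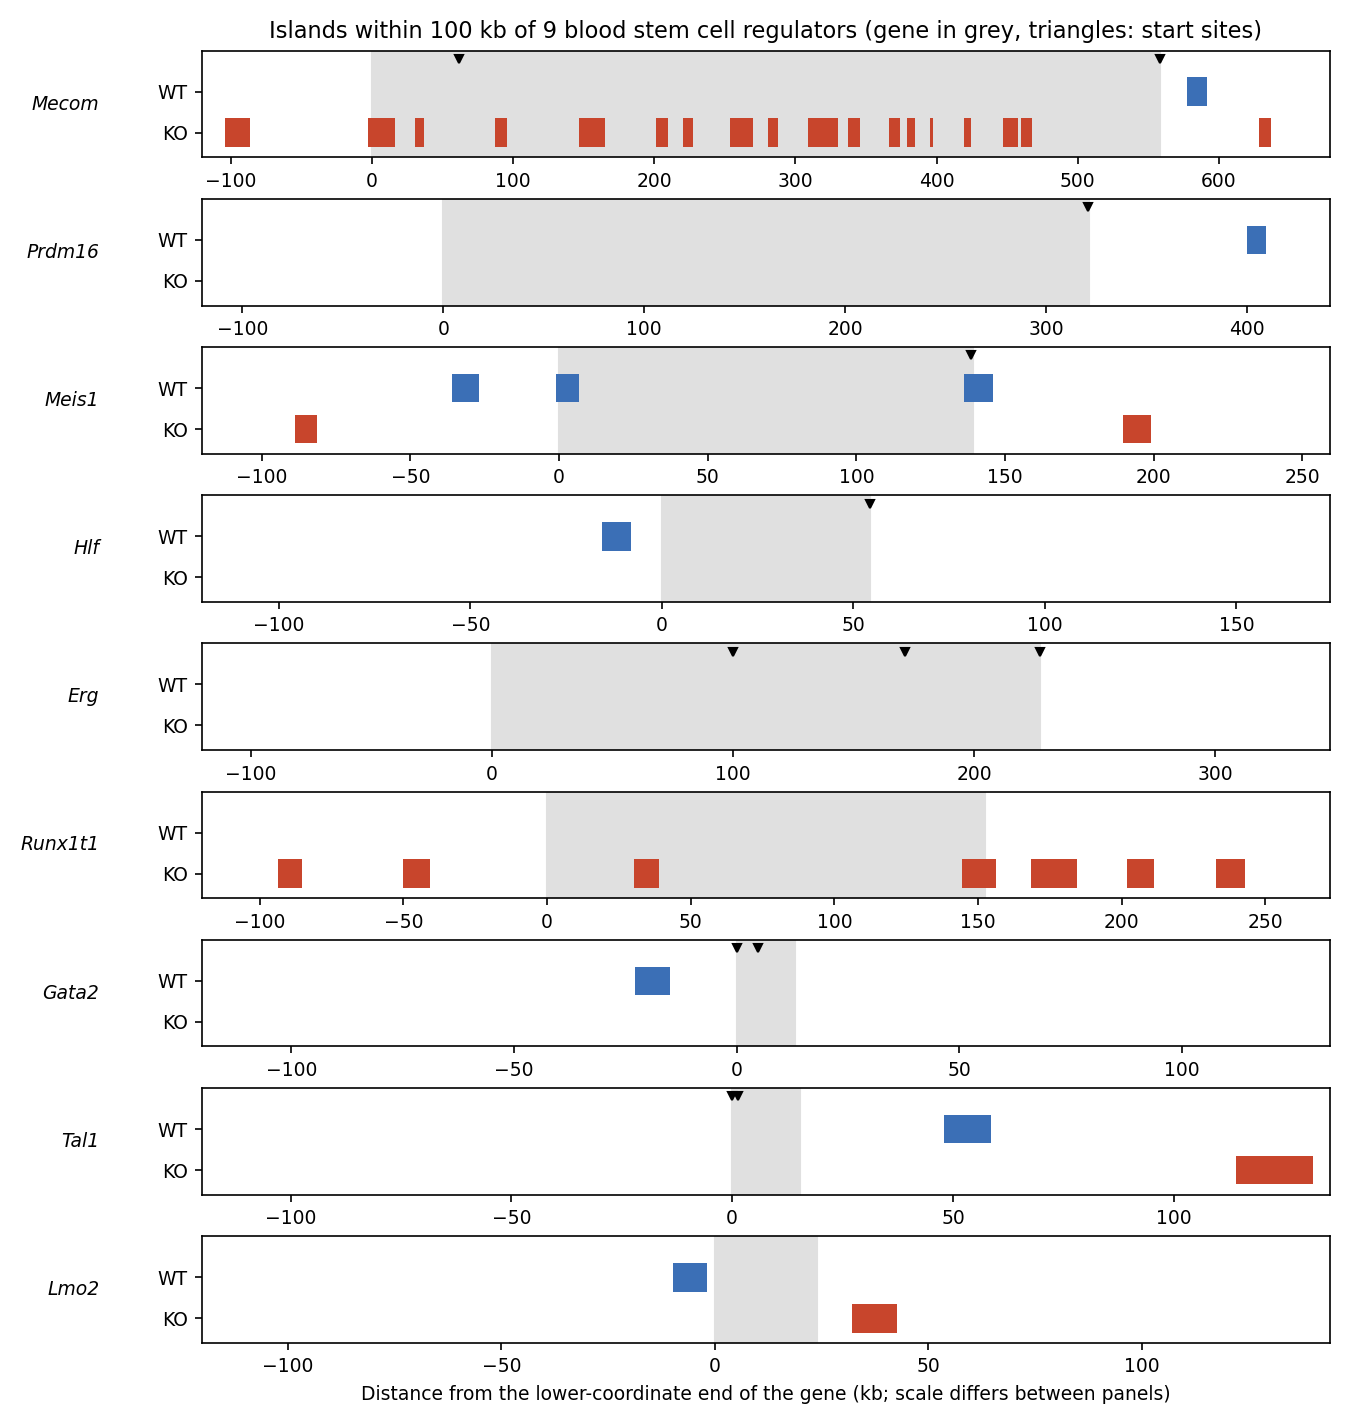
Islands around each of the 9 members. Each panel shows a gene in grey, its RefSeq start sites as triangles, and WT (blue) and KO (red) islands by distance from the gene's lower-coordinate end (kb, with its own scale). KO islands are spread along Mecom and surround Runx1t1, WT islands sit at both ends of Meis1, and the Erg panel is empty.

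Gata2, Tal1 and Lmo2 each had a single WT island nearby and none inside. Of autosomal protein-coding genes under 60 kb, 48.6% had a WT island in the gene or its flanks. Of all autosomal genes, 81% had no island of either genotype inside. At Gata2 (chr6:88193891-88207032) the WT island chr6:88171001-88179000 lay 14.9 kb upstream with 398 reads, or 49.8 per kb (45.0 to 54.9), denser than 95.2% of the WT list. It was the densest WT island of the 9 loci, and the nearest KO island lay 326 kb from Gata2. At Tal1 (chr4:115056426-115071755) the WT island chr4:115104501-115115000 lay 32.7 kb downstream with 42.1 reads per kb, over the cytochrome P450 gene Cyp4x1. At Lmo2 (chr2:103957903-103981878) the WT island chr2:103948001-103956000 lay 1.90 kb from the lower-coordinate end with 41.6 reads per kb. The 3 WT islands were 8, 10.5 and 8 kb long.

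KO islands near these 3 genes were fewer. At Lmo2 a KO island, chr2:103990001-104000500, lay 8.12 kb from the other end, with 35.8 reads per kb and over part of the gene 4931422A03Rik. The WT and KO islands of Lmo2 thus flanked the gene on opposite sides, 34 kb apart. At Tal1 a KO island, chr4:115170501-115188000, began 98.7 kb downstream with 39.2 reads per kb, just inside the limit. It was the only one of the 29 KO islands at the 9 loci to be overlapped by a WT island, over 4.50 kb that lay outside the 100 kb.

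Hlf and Erg had no KO island nearby. At Hlf (chr11:90336535-90390917, minus strand) the WT island chr11:90321001-90328500 lay 8.03 kb downstream with 309 reads, or 41.2 per kb, and the nearest KO island was 348 kb away. At Erg (chr16:95359169-95586600, minus strand) there was no island of either genotype within 100 kb. The nearest lay 313 kb from the gene in WT and 490 kb in KO. Erg is the member with no called mark in either library, although it is 227 kb long.

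Counted over all 9 loci with their flanks, 7 members had a WT island and 5 a KO island. Over all autosomal protein-coding genes by the same rule, 51.8% had a WT island and 42.7% a KO island. Of the members, 3 had islands in WT alone (Prdm16, Hlf and Gata2), against 17.6% of all genes, and Runx1t1 in KO alone, against 8.54%. Mecom, Meis1, Tal1 and Lmo2 had both, against 34.2%, and Erg neither, against 39.7%. Inside the gene itself, Meis1 had WT islands alone, Mecom and Runx1t1 KO islands alone, and 6 had none, against 81% of all genes. Longer windows hold islands more often. Of the 5 members of 100 kb or more, 3 had a WT and 3 a KO island, against 72.2% and 65.4% of genes that long. Of the 4 under 60 kb, 4 had a WT and 2 a KO island, against 48.6% and 39.4%.

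Total KO cover lay mostly at Mecom and Runx1t1. WT islands covered 84 kb (2.54%) of the 3306 kb in the 9 loci and KO islands 286 kb (8.65%). Of this KO cover 183 kb lay at Mecom, which was chosen for its long cover in KO alone. The 2 totals are therefore a description, and no such total was computed for all genes. The KO list was also reduced to the WT number of islands, which can only lower KO values. Keeping the islands with most reads per kb gave 84.5 kb of KO cover, next to the same 84 kb in WT. Keeping those with most reads gave 168 kb. In the full lists without Mecom, the values were 70 kb in WT and 103 kb in KO. Without Mecom and Runx1t1 they were 70 kb (3.19%) in WT and 28.8 kb (1.31%) in KO, so that WT was then the higher. The median locus was covered by 2.95% in WT and 0.583% in KO, against 1.51% and 0% over all autosomal genes. By the mean, WT cover of the members was the lower, 2.96% against 4.68% over all genes. Mean KO cover, with Mecom included, was 6.16% against 4.96%. These values are not matched for gene length.

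**Figure D4:**
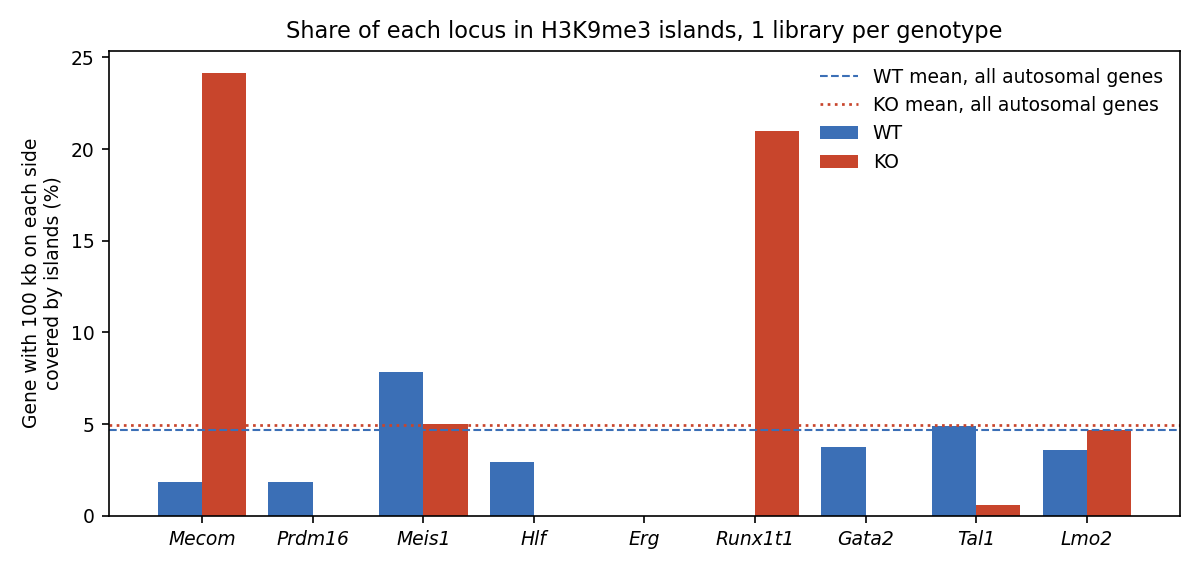
Share of each gene with 100 kb on each side that lay in WT (blue) or KO (red) islands, as a percentage on the y axis, with 1 library per genotype. Lines give the mean over all autosomal protein-coding genes, 4.68% in WT and 4.96% in KO. Mecom (24.2%), which was chosen for its KO cover, and Runx1t1 (21%) stand above the KO line, and no other member passes 5.01% in KO. The lines are not matched for gene length. Over genes 0.5 to 2 times as long as Mecom, the KO mean was 11.0%.

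Overlap of WT and KO islands at these loci was limited to the Tal1 case. Of the 9 WT islands 0 were overlapped by a KO island, where 48% of the whole WT list was, and of the 29 KO islands 1 was overlapped by a WT island, where 24.9% of the KO list was. Mecom, chosen for cover in KO alone, holds 18 of the 29, of which the 16 in the gene could not be overlapped, and without it 1 of 11 was. The shares of the whole lists are therefore printed for scale only. The WT islands lay 34 to 828.5 kb from the nearest KO island, with a median of 55.5 kb. WT islands here were 7.50 to 14 kb long and had 35.5 to 49.8 reads per kb, 5 of the 9 above their list's median. KO islands were 2.50 to 21 kb long and had 34.6 to 55.2 reads per kb, 11 of the 29 above it, or 1 of 11 without Mecom. Of those 11, 7 are the islands at Runx1t1, and of the other 4, at Meis1, Tal1 and Lmo2, 1 lay above the median.

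The limit of 100 kb fell close to several islands. Just inside it was the KO island at Tal1 (98.7 kb). Just outside were a KO and a WT island at Tal1 (111 and 112 kb), a KO island at Meis1 (112 kb), a KO and a WT island at Mecom (116 and 125 kb) and the WT island at Runx1t1 (119 kb).

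**Figure D5:**
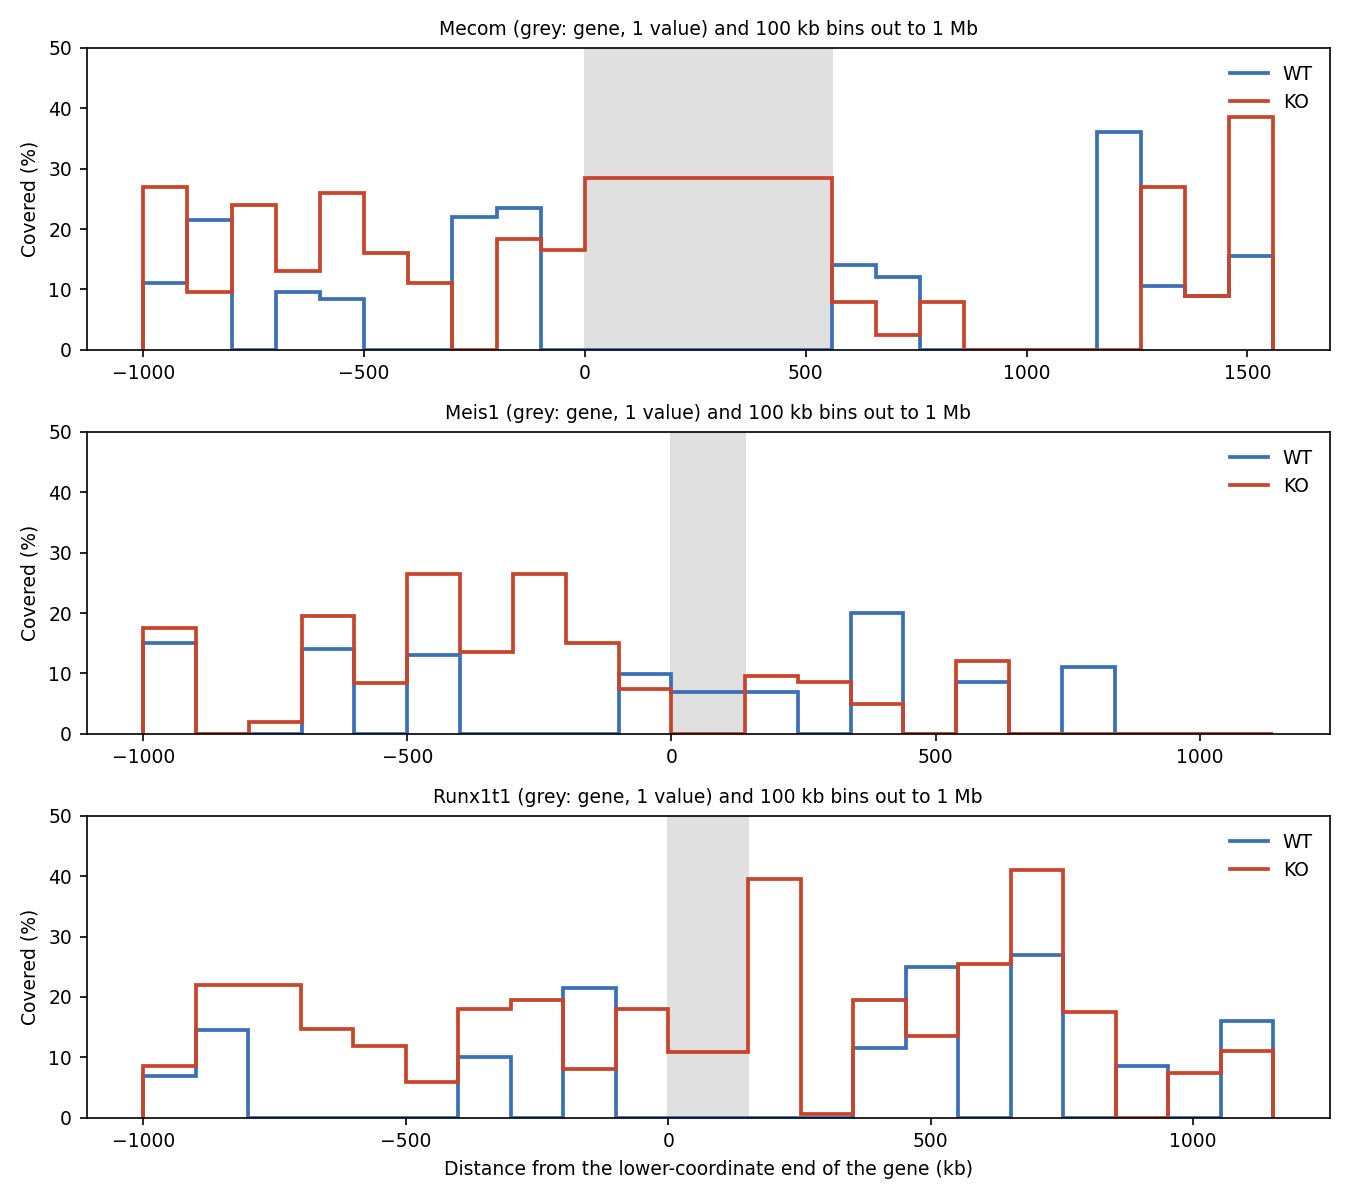
Cover from 1 Mb before to 1 Mb after Mecom, Meis1 and Runx1t1. The y axis gives the share in islands (%) in bins of 100 kb, with 1 value for each gene (grey), against distance from the gene's lower-coordinate end (kb), WT in blue and KO in red. Mecom stands at 28.4% in KO and 0% in WT, Meis1 at 6.98% in WT and 0% in KO, and Runx1t1 at 10.9% in KO and 0% in WT.

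Most other regulators of blood stem and progenitor cells had no island nearby. Of 31 autosomal genes on this list, 11 had a WT island and 8 a KO island in the gene with its flanks, 6 in WT alone, 3 in KO alone, 5 in both and 17 in neither. Over all autosomal genes the shares were 51.8% with a WT island and 42.7% with a KO island. By the same rule, 17.6% had islands in WT alone, 8.54% in KO alone, 34.2% in both and 39.7% in neither. The median gene of the list was covered by 0% in both libraries. The most covered was Tek, the angiopoietin receptor of endothelium and stem cells, where WT islands took 57 kb and KO islands 48.4 kb. Lin28b, an RNA-binding regulator of fetal blood cells, had 34.4 and 41 kb. Zbtb16, the factor PLZF of innate-like T cells, had 32.5 kb of WT cover and 4.50 kb of KO cover, all in its flanks.

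Relatives of the members by protein family had islands at shares near those of all genes. Of 30 autosomal relatives, 17 had a WT and 12 a KO island, 6 in WT alone, 1 in KO alone, 11 in both and 12 in neither. Over all autosomal genes 51.8% had a WT and 42.7% a KO island, with 17.6% in WT alone, 8.54% in KO alone, 34.2% in both and 39.7% in neither. The median cover of the relatives was 2.26% in WT and 0% in KO. Lmo3, a relative of Lmo2, had 13 kb of WT cover and 101 kb of KO cover, with 66.5 kb of the KO cover inside the gene. Gata4 had 28 kb in WT, all inside the gene, and no KO island, and Gata6 had 32 kb of WT and 10 kb of KO cover. Both are GATA factors of heart and gut. Prdm1, which encodes BLIMP-1 of effector T cells, had 29.5 kb of WT and 15 kb of KO cover. Meis2, the closest relative of Meis1, had 27 and 15.5 kb. Gata1 is on both lists and was left out, since it lies on chromosome X.

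T cell identity genes, which CD8+ T cells use, were looked at for contrast. None of 18 had an island in the gene in either library, as was so for 81% of all autosomal genes. With flanks, 4 had a WT and 2 a KO island, against 51.8% and 42.7% of all genes. They included Cd247, a chain of the T cell receptor complex, with 11.5 kb of WT and 4.50 kb of KO cover. Cd2 had 8.50 kb and the adaptor gene Lat 3 kb in WT alone, and Lef1 had 3.20 kb in KO alone. An island list shows no expression, so it does not show which cells the libraries held.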

How the data were processed

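H3K9me3 ChIP-seq was deposited as 1 island list per genotype. Bowtie2, SICER 1.1 and mm10 are named in the submitters' processing notes. The sources used here give no window, gap or threshold and do not say whether the input was used. Per the values, the authors' lists lie on a 500 bp grid and hold a whole-number count per island, unscaled to depth or input. The deposited counts have no header and were read as ChIP reads. Positions were converted to count from 1. Genes and start windows came from RefSeq tables of GRCm38.p6, without scaffolds. The background was limited to autosomes, since chromosome X had few islands. Strand was taken from the start windows, where a member had one.

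Cover and overlap (at least 1 bp) were computed with Python 3.11.15, pandas 2.3.3 and numpy 2.4.6, and checked on simulated islands. Poisson intervals (95%, scipy 1.17.1) cover counting error only. With 1 library per genotype no test was made. The members and the 3 gene lists were chosen with earlier results of these data known. Genes named are the members, protein-coding genes under their islands (up to 3 each), up to 3 genes per list and genotype with most cover, and the 3 nearest to Mecom in KO-covered share. Names of genes flanking Mecom and of non-coding genes were chosen after their values were seen. Some genes that this rule would name are not reported here.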

Additional observations from a re-analysis of the deposited data

How the results depend on the processing

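No paired analysis was possible because there is only 1 library for each genotype. Leaving out Mecom, a setting chosen after the data were seen, took KO cover of the loci from 286 to 103 kb. Taking only the genes themselves, 1 member had a WT and 2 a KO island, with 9.72 kb of WT and 175 kb of KO cover. Over all autosomal genes, 5.98% had an island in the gene in WT alone, 5.86% in KO alone and 81% in neither. Shares of all genes were not computed for the other settings below, so those member counts are descriptions only. Within 10 kb, 3 members had a WT and 3 a KO island, with 27.5 and 184 kb. Within 50 kb, 6 members had a WT and 3 a KO island. Within 200 kb, WT cover was 182.5 kb, and 3 of 18 WT and 5 of 40 KO islands were overlapped. No KO island was overlapped (0) at 0, 10 or 50 kb. The count was also 0 among islands denser than their list's median and with the KO list reduced by reads per kb. It was 0 too when 50% of the island had to be covered. KO islands in Mecom, chosen for cover in KO alone, could not be overlapped, so these counts are descriptions only. Of the whole KO list 24.9% was overlapped as reported, and no share was computed for the denser, reduced or 50% settings. Among islands denser than their list's median, 2 members had a KO island. WT cover was then 43 kb, KO cover 84.5 kb, and KO cover of Mecom 77 kb. The KO list reduced to the WT number by reads per kb also gave 2 members, 84.5 kb of KO cover (84 kb in WT) and 77 kb in Mecom. Reduced by reads, it gave 168 kb over the loci and 83.2 kb in Mecom. Only KO islands are dropped in these 2 settings, so KO values can only fall. With 100 kb on each side Mecom had 14 kb in WT. Islands of at least 5 kb and joining of islands at most 5 kb apart moved no value by over 1.5 times. Depth of the whole libraries is not known here, which limits any comparison of density between genotypes.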
